A study of Mus musculus with 6 samples.

Results

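The genes described here encode the proteasome, the protease complex that degrades ubiquitin-tagged proteins. They were chosen by symbol as the protein-coding genes of chromosomes 1 to 19 named Psma, Psmb, Psmc, Psmd, Psme, Psmf or Psmg with a number, and 49 of 20807 protein-coding genes met this rule. CUT&RUN, which maps a protein or histone mark on chromatin by antibody-directed cutting with a nuclease, was done on 6 samples of the mouse embryonic stem cell line E14, grown in serum with LIF and given doxycycline for 48 h. HA-ASH2L E14 cells were profiled in 2 samples with an antibody to the HA tag and in 2 samples with an antibody to H3K4me3, the trimethylated form of lysine 4 of histone H3. The third group was 2 samples of parental E14 cells, labelled wild type, with the HA antibody, and its signal was not analysed here. ASH2L is a core subunit of the methyltransferase complexes that place H3K4me3. The labels call the genotype of the HA-ASH2L cells a knock-in, whereas the treatment note names a doxycycline-induced transgene and the study's methods describe an integrated expression plasmid, so tagged ASH2L may not have been at the level of the endogenous protein. The authors merged the duplicates of each antibody before they called peaks. Every value below is thus 1 value per peak from a merged library, there is no spread between replicates, and no test of a difference between genes was made.

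The proteasome has a barrel-shaped core particle, 20S, made of outer rings of alpha subunits and inner rings of beta subunits, of which 3 beta subunits cut the substrate. A regulatory particle, 19S, sits on the end of the barrel. Its ATPases unfold the substrate, and its other subunits bind and remove ubiquitin. Interferon exchanges the cutting beta subunits for Psmb8, Psmb9 and Psmb10 and so forms the immunoproteasome. Psmb11 takes the place of Psmb5 in cortical epithelial cells of the thymus, and Psma8 takes the place of Psma7 in the testis. H3K4me3 marks the nucleosomes around the start sites of active and poised genes and is usually found at promoters rich in CpG dinucleotides. H3K4me3 is not a measure of RNA, and RNA was not analysed here.

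By the naming rule, 44 genes fell in the constitutive class and 5 in the class of Psmb8, Psmb9, Psmb10, Psmb11 and Psma8. The constitutive class includes Psmc3ip, whose product binds an ATPase subunit and acts in meiotic recombination and is no subunit, and Psme2b, a copy of Psme2. The transcripts of Psme2b and Psme2 were 99.4% identical over 794 aligned bases. Whether reads from these genes can be told apart was not tested. A promoter was taken as the stretch from 1000 bp upstream to 100 bp downstream of any annotated transcript start, and a peak counted if it overlapped a promoter by at least 1 bp. The median number of start sites was 5 for the 49 genes and 3 for all protein-coding genes, so the members had more chances of an overlap.

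Promoter stretches of 7 members are shown because the results turn on them. Psmd12 had ASH2L and no listed H3K4me3, Psmb3 had no listed H3K4me3 at its coding start, Psmd11, Psmd6 and Psmg1 had both marks, and Psmb5 and Psmb10 stand for the constitutive and the immunoproteasome cutting subunits. The sequences are from RefSeq on GRCm38.p6, read 5′ to 3′ along the gene, run over at most 200 bases and end at the last base before the nearest annotated exon. Capitals mark matches to the 6 motifs described further on.
Psmd12, plus strand, chr11:107479328-107479483: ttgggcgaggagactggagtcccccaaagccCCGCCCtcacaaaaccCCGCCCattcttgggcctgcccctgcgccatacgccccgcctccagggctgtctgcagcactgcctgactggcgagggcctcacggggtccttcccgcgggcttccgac
Psmb3, plus strand, chr11:97703234-97703398: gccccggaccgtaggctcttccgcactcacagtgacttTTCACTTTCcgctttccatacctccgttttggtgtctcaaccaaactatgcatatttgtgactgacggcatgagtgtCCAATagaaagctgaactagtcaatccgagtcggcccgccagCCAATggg
Psmd11, plus strand, chr11:80428415-80428614: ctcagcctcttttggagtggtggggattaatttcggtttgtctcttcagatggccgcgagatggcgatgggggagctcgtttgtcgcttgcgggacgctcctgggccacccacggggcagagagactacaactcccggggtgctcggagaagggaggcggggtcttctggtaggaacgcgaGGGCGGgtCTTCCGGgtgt
Psmd6, minus strand, chr14:14120985-14121145: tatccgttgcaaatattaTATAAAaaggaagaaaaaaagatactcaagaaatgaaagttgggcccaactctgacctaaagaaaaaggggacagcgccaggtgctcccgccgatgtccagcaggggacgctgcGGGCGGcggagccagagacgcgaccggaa
Psmg1, minus strand, chr16:95990961-95991160: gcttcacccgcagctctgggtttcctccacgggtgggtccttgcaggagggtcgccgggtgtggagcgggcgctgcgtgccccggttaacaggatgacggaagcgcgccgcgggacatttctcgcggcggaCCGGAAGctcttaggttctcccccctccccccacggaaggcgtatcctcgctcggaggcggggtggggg
Psmb5, minus strand, chr14:54618023-54618195: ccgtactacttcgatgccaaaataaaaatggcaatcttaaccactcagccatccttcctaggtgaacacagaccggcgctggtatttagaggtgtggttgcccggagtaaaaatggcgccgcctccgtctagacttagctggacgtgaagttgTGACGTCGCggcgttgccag
Psmb10, minus strand, chr8:105938445-105938592: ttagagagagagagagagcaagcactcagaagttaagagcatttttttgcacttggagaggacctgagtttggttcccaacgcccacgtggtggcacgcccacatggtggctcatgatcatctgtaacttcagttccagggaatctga

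The question of the first comparison was how many proteasome genes carry H3K4me3 at a promoter in these cells. An H3K4me3 promoter peak was listed for 47 of the 49 members (95.9%, 95% Wilson interval 86.3% to 98.9%), against 69.8% of all protein-coding genes. In the constitutive class 42 of 44 genes had one, and in the class of specialised subunits 5 of 5. The exceptions were Psmd12, a scaffold subunit of the 19S lid, and Psme2b. The H3K4me3 list holds 59927 peaks from 27328071 tags, the ASH2L list 2464 peaks from 25677963 tags, and 45.7% and 0.398% of those tags lie in peaks. Of 5 genes that define embryonic stem cells, Klf4 and Esrrb had an H3K4me3 promoter peak in the list, while Pou5f1, Sox2 and Nanog had none. A gene without a listed peak therefore cannot be read here as a gene without the mark.

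When only the start of the principal transcript of each gene was used, 45 of 49 members had an H3K4me3 peak at that promoter, against 65.8% of all protein-coding genes. Psmb3 and Psmf1 then joined Psmd12 and Psme2b. Psmf1 encodes PI31, an inhibitor of the core particle. Its peak of 2511 bp, with 427 tags and a fold enrichment of 7.89, began 2073 bp downstream of the principal start and covered another coding start at position 151741310 of chromosome 2, which is also the RefSeq start. Psmb3, a non-cutting beta subunit, was counted only through an annotated start of a retained-intron transcript inside the gene. The peak there lay 121 bp from that start, was 1353 bp wide with 88 tags and a fold enrichment of 4.60, and began 7190 bp downstream of the coding start of Psmb3 at position 97703399 of chromosome 11. With 1 peak per gene, the one with the most tags, this was the narrowest of the members' H3K4me3 peaks and had the fewest tags.

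At Psmd12 the nearest H3K4me3 peaks lay on either side of the gene's start, one ending 26070 bp upstream with 984 tags and the other beginning 29913 bp downstream with 290 tags. The window around the principal start of Psmd12 had 50.7% GC and a CpG ratio, observed over expected, of 0.582. The same window of Psmb3 had 53.8% GC and a CpG ratio of 0.779. At Psme2b the nearest peak was 5218 bp away and had 24 tags. Its window was poor in CpG, with a ratio of 0.132, and 68.6% of it was marked as repeat sequence in the reference. Of the members without a listed promoter peak, Psme2b lay closest to one. Of those with a peak, Psmb11 had the smallest overlap with a promoter window, 461 bp.

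**Figure D1:**
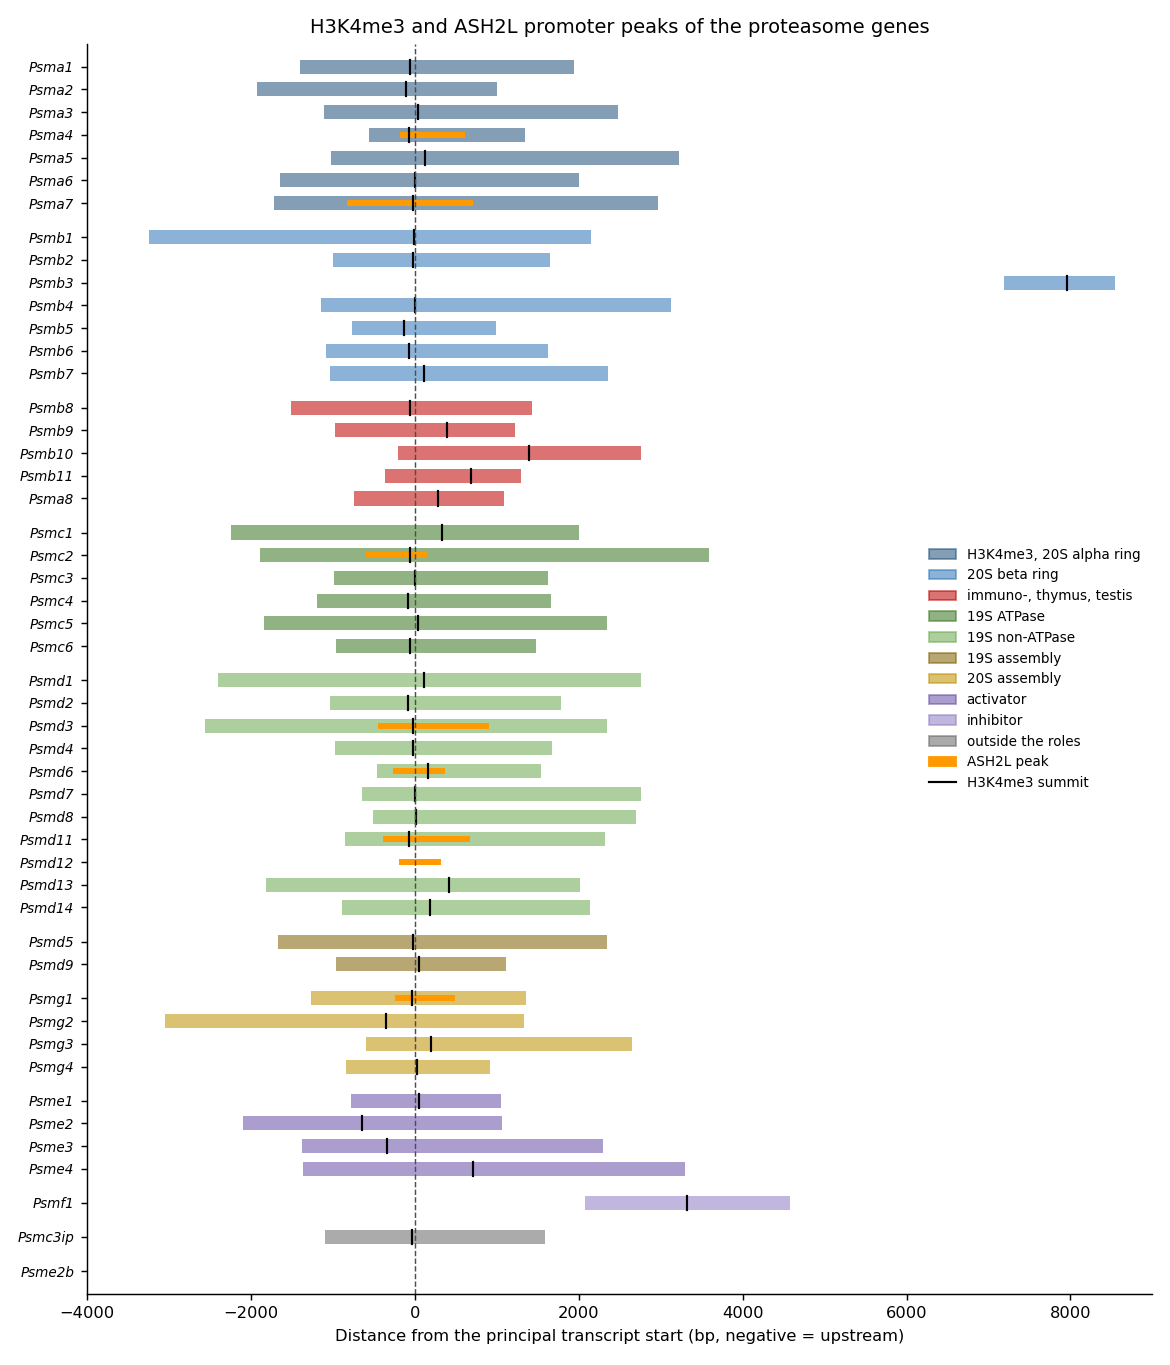
H3K4me3 promoter peak with the most tags (wide bars, coloured by role, black tick at the summit) and ASH2L promoter peak (orange) of each of the 49 members, in bp from the start of the principal transcript. In 45 members the H3K4me3 bar crosses the start, in Psmb3 and Psmf1 it lies downstream, and Psmd12 has an ASH2L bar alone.

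The H3K4me3 peaks of the members were of ordinary size. The median width was 3019 bp over the 47 members with a peak (95% order-statistic interval 2692 to 3403 bp, range 1353 to 5479 bp), and 2964 bp over the 14520 protein-coding genes with one. The median tag count was 513 (464 to 567), against 476. The median fold enrichment, which sets the summit against the background in 10000 bp around it, was 7.10 (6.14 to 7.53), against 6.34. More members lay above than below the all-gene median in each measure, 25 of 47 for width, 28 for tags and 30 for fold enrichment. Peaks of at least 5000 bp, as at Psmc2, Psmb1 and Psmd1, were found in 3 of 49 members, against 8.91% of all protein-coding genes.

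Width and tags moved together among the members, while fold enrichment went the other way. Across the 47 genes Spearman's rho was 0.928 between width and tags and -0.644 between width and fold enrichment. The values across all 14520 genes were 0.931 and -0.733. All these points share 1 library and 1 peak caller, and the local background of a wide peak includes the peak itself. The 16 narrowest members, up to 2650 bp, had a median fold enrichment of 8.06, and the 16 widest, from 3591 bp, one of 5.19. Fold enrichment and tags thus put the members in different orders.

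**Figure D2:**
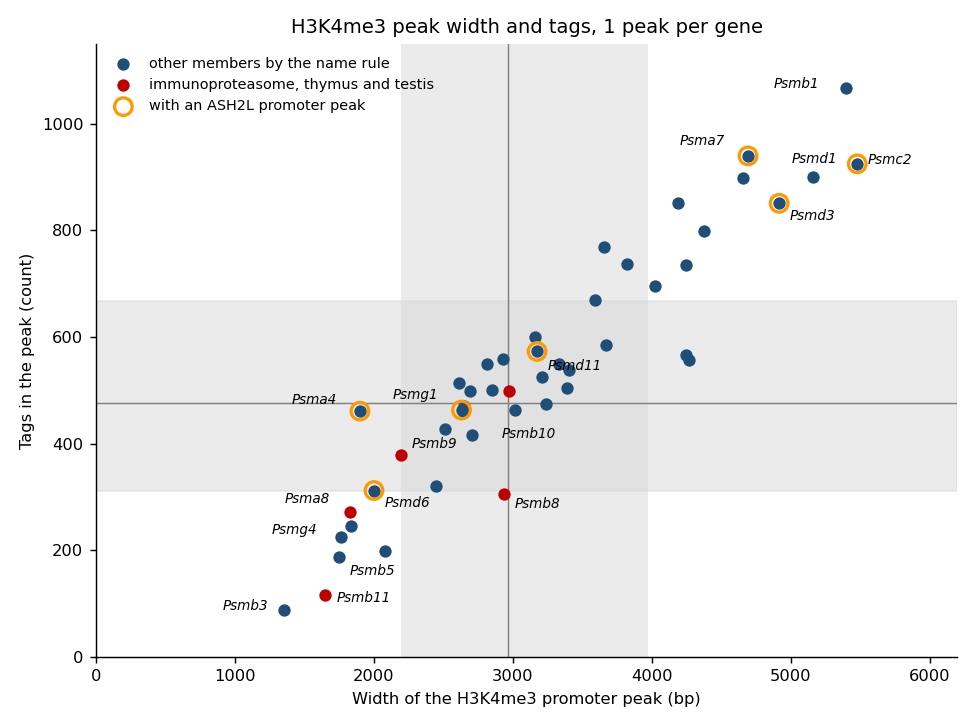
Width (bp) against tags (count) of the H3K4me3 promoter peak of 47 members, with the median (line) and interquartile range (grey) of 14520 protein-coding genes. Psmb1, Psma7 and Psmc2 have the most tags, Psmb3, Psmb11 and Psmb5 the fewest, and the specialised subunits (red) lie at or below 499 tags.

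All 7 alpha-ring genes, Psma1 to Psma7, had a peak, against 69.8% of all protein-coding genes, and 6 of the 7 were above the all-gene median in tags. Their tag counts ran from 461 at Psma4 to 940 at Psma7, and their widths from 1900 to 4693 bp. Psma7 had the second lowest fold enrichment of all members, 4.27, and that of Psma4 was 5.89. The peak of Psma2 had 558 tags in 2930 bp and a fold enrichment of 7.10.

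The beta-ring genes varied more. Their tags ran from 88 at Psmb3 to 1068 at Psmb1, the highest count of any member, and 3 of 7 were above the all-gene median. The peak of Psmb1 was 5397 bp wide with a fold enrichment of 5.08 and also held a start of Tbp, which encodes the TATA-binding protein. Psmb5, which carries the chymotrypsin-like activity, had a narrow peak of 1751 bp with 188 tags, a count that 11.6% of all genes with a peak did not exceed, and a fold enrichment of 9.51. The cutting subunits Psmb6 and Psmb7 had 417 and 504 tags. Psmb2 had 462 tags in 2644 bp, and Psmb4 557 tags in 4270 bp.

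The 6 ATPase genes of the 19S base, Psmc1 to Psmc6, all had a peak, against 69.8% of all protein-coding genes. In tags 5 of the 6 were above the all-gene median. Psmc2 had the widest peak of any member, 5479 bp with 925 tags, and its fold enrichment of 4.39 was the third lowest. Psmc5 had 852 tags in 4189 bp and a fold enrichment of 5.20. Psmc6 had the fewest tags of the group, 320 in 2450 bp.

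Among the 11 non-ATPase subunits of 19S, 10 had a peak, against 69.8% of all protein-coding genes. In tags 7 of the 10 were above the all-gene median. Psmd1, the large scaffold of the base, had 900 tags in 5160 bp and the lowest fold enrichment of any member, 3.99. Psmd4, a ubiquitin receptor, had 471 tags in 2650 bp and a fold enrichment of 9.57, the third highest. Psmd14, the deubiquitinase of the lid, had 464 tags in 3019 bp. Psmd2, another scaffold and ubiquitin-binding subunit, had 550 tags in 2816 bp. Of the subunits that also had ASH2L, Psmd3 had 851 H3K4me3 tags in 4917 bp and a fold enrichment of 5.81. Psmd11 had 573 tags in 3175 bp and a fold enrichment of 6.14, and Psmd6 312 tags in 2001 bp and one of 8.23. Psmd13 had 738 tags in 3824 bp with a fold enrichment of 6.47, and a second peak of 643 bp within the gene, with 31 tags and a fold enrichment of 6.84.

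The assembly chaperones and the activators were also marked. The chaperones of the core particle, Psmg1 to Psmg4, had between 224 and 799 tags, and Psmg4 had the highest fold enrichment of any member, 12.70, over a peak of 1761 bp with 224 tags. Psmg1 had 463 tags in 2631 bp and a fold enrichment of 7.53. Psmg2 had 799 tags in 4375 bp and one of 5.06, and Psmg3 474 tags in 3239 bp and one of 7.40. The chaperones of the base, Psmd5 and Psmd9, had 696 and 199 tags. Psmd5 had a second peak of 1708 bp with 264 tags upstream of its start. The activator genes Psme1 and Psme2, whose products form the interferon-induced PA28 cap, had 246 and 600 tags. The peak of Psme2 was 3161 bp wide with a fold enrichment of 7.10. Psme3, which encodes the nuclear form of that cap, had 585, and Psme4, which encodes PA200, had 899.

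The question of the next comparison was whether the immunoproteasome, thymus and testis genes differ from their constitutive counterparts. Each of the 5 specialised genes had a peak over its principal start. Of all protein-coding genes, 65.8% had a peak at the promoter of that start. Among those with any H3K4me3 promoter peak, it covered the principal start in 88.7%. The median tag count was 306 for these 5 genes (range 116 to 499) and 543.5 for the 42 constitutive genes with a peak (range 88 to 1068, 95% interval of the median 474 to 585), and their median width was 2196 bp against 3193 bp. The ranges overlapped, and with 5 genes no interval of the median can be given. The 88 tags are those of Psmb3, whose peak begins 7190 bp downstream of its coding start. The next lowest constitutive count was 188 at Psmb5, and Psmb11 had 116. Of the 5, Psmb10 alone lay above the all-gene median in tags. Fold enrichment went the other way, with a median of 7.29 against 7.10, and 4 of the 5 lay above the all-gene median of 6.34.

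Psmb8 had 306 tags (95% Poisson interval 273 to 342) in 2938 bp, and Psmb5, the subunit it replaces, 188 tags (162 to 217) in 1751 bp. Here the specialised gene had the more tags, 1.63 times as many. Psmb9 had 379 tags (342 to 419) and Psmb6 417 (378 to 459). The Psmb9 peak also holds a start of Tap1, so its tags cannot be assigned to Psmb9 alone. Psmb10 had 499 tags (456 to 545) and Psmb7 504 (461 to 550). In both of these pairs the counting intervals overlapped. The fold enrichment was 6.05 at Psmb8, 7.29 at Psmb9 over 2196 bp, and 7.35 at Psmb10 over 2970 bp. The intervals cover counting error only.

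The thymus and testis genes had fewer tags than their counterparts. Psmb11 had 116 tags (95.9 to 139) in 1652 bp, which is 0.617 times the count of Psmb5, and a fold enrichment of 6.62. Psma8 had 271 tags (240 to 305) in 1825 bp, which is 0.288 times the 940 tags (881 to 1002) of Psma7. The Psma7 peak also holds a start of Ss18l1, so its tags cannot be assigned to Psma7 alone. Psma8 also had the second highest fold enrichment of any member, 10.48, over its narrow peak. The order thus differed from pair to pair, and neither class had the more tags throughout. Only Psmb8 had more tags than its counterpart, and that counterpart, Psmb5, is also the gene set against Psmb11.

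**Figure D3:**
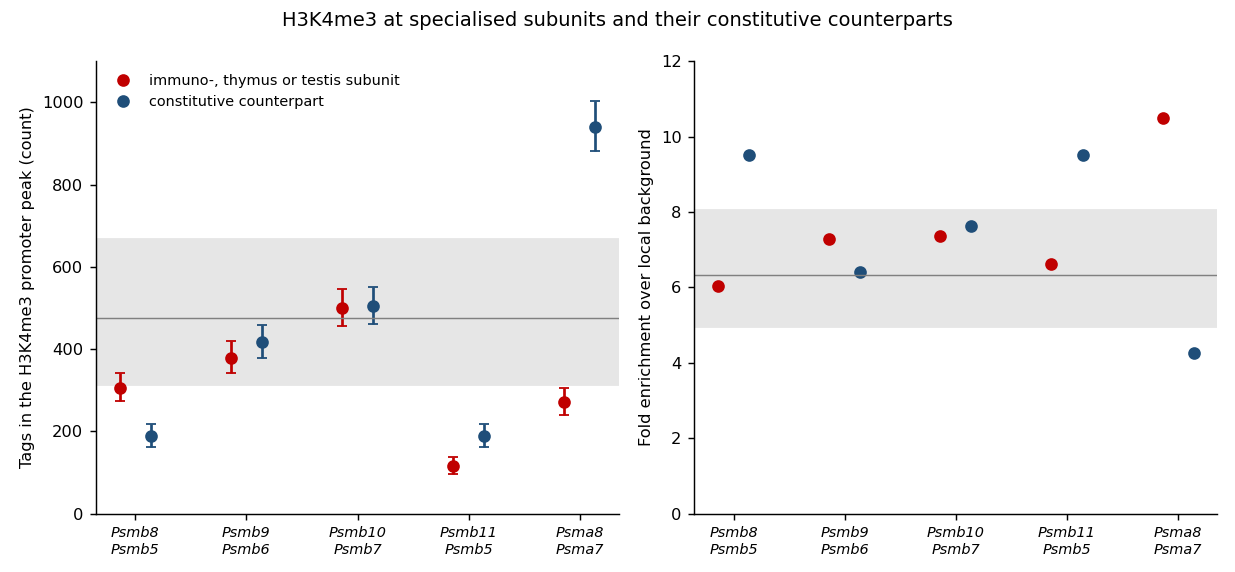
Tags (left, count with 95% Poisson interval) and fold enrichment (right) of the H3K4me3 promoter peak of each specialised subunit (red) and its constitutive counterpart (blue), with the median (line) and interquartile range (grey) of all protein-coding genes. Psma8 has 271 tags and Psma7 940, while Psmb10 and Psmb7 nearly coincide at 499 and 504. The peaks of Psma7 and Psmb9 also hold a start of another gene.

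The summits of the specialised genes lay downstream of the principal start in 4 of 5. At Psmb10 the summit was 1390 bp downstream of the principal start, and the peak reached 205 bp upstream and 2764 bp downstream of it. At Psmb11 the summit was 682 bp downstream, at Psmb9 396 bp and at Psma8 282 bp downstream, and at Psmb8 it was 53 bp upstream. Seen from the RefSeq start of Psmb9, at position 34187330 of chromosome 17, its summit lies upstream. Over all 45 members whose peak covered the principal start, 21 summits were downstream and 23 upstream, and 1 fell on the start itself. The peak reached further downstream than upstream in 38 of the 45, and in 75.1% of all protein-coding genes with a covered start. A difference between the classes was not tested.

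Some H3K4me3 peaks held the start of a neighbouring gene, so that tags cannot be assigned to a single gene there. This was so for 11 of 49 members (Wilson interval of the share 13.0% to 35.9%), against 14.1% of all protein-coding genes, which lies inside that interval. Only a gene with a peak can share one, and 47 of the 49 members had a peak, against 69.8% of all protein-coding genes. The shared peaks were those of Psma2 with Mrpl32, Psma4 with AY074887, Psma7 with Ss18l1, Psmb1 with Tbp, Psmc2 with Dnajc2, Psmc5 with Ftsj3, Psmd13 with Sirt3, Psme2 with Rnf31, Psmg2 with Cep76, Psmg3 with Gm26938, and Psmb9 with Tap1. Psmb9 and Tap1, which encodes a subunit of the transporter that carries peptides into the endoplasmic reticulum, have principal starts 211 bp apart in the major histocompatibility complex. Their common peak was 2196 bp wide.

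The question of the third comparison was where tagged ASH2L was found at these genes. An ASH2L promoter peak was listed for 8 of 49 members (16.3%, Wilson interval 8.51% to 29.0%), against 8.07% of all protein-coding genes, which lies just below that interval. Among genes with an H3K4me3 promoter peak the shares were closer, 14.9% of the members and 11.3% of all protein-coding genes. Genes are not replicates, and the difference was not tested. All 8 were constitutive. Among the 5 specialised subunits there was no ASH2L promoter peak, and with 5 genes the Wilson interval of that share reaches 43.4%. Psma4 and Psma7 were from the alpha ring, Psmc2 from the ATPases, Psmd3, Psmd6, Psmd11 and Psmd12 from the other 19S subunits, and Psmg1 from the chaperones. No beta-ring gene and no activator gene had one. Of the other 41 members, Psma5 had the closest listed ASH2L peak, 15252 bp from a start.

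By the score of the peak caller, 6 of the 8 ASH2L peaks ranked above the middle of their list. Psma7 had the most tags, 77 (95% Poisson interval 60.8 to 96.2) over 1547 bp, and 97.8% of the peaks in the list had as many or fewer. Its fold enrichment, 4.45, was below the list median of 5.37, as was that of Psmd3, 3.72. Psmd3 had 56 tags (42.3 to 72.7) over 1346 bp, and Psmd11 had 49 (36.3 to 64.8) over 1057 bp. The remaining 5 had fewer. Psma4 had 38 tags (26.9 to 52.2), Psmg1 33 (22.7 to 46.3), Psmc2 32 (21.9 to 45.2), Psmd6 27 (17.8 to 39.3) and Psmd12 23 (14.6 to 34.5). The score of the peak caller, which is 50 at its threshold, ran from 50.14 at Psmc2 to 99.29 at Psma7. The share of the list with a score at or below the member's was 0.852% at Psmc2 and 20.5% at Psmd12, and between 55.6% at Psma4 and 90.1% at Psma7 in the other 6 genes. At a score of at least 100 no member kept an ASH2L peak, as against 0.961% of all protein-coding genes, and at a fold enrichment of at least 5.37, the median of the list, 2 of 49 did, Psmd6 and Psmg1, as against 3.93% of all protein-coding genes.

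In 7 of these 8 genes the ASH2L peak lay wholly inside the H3K4me3 peak. An H3K4me3 promoter peak was also the rule over all protein-coding genes with an ASH2L promoter peak. Of those 1679 genes, 44 had no listed H3K4me3 promoter peak. Whether the ASH2L peak lay wholly inside was counted for the members only. In the 7 members the ASH2L peak took up between 13.6% of the H3K4me3 width at Psmc2 and 41.7% at Psma4. The ASH2L summits ran from -242 bp, upstream of the principal start, at Psmc2 to 287 bp downstream of it at Psmd11. These 7 genes had a median of 573 H3K4me3 tags (range 312 to 940), and the 40 members with H3K4me3 alone one of 508.5 (88 to 1068), so that the ranges overlapped nearly in full. Over all protein-coding genes, an ASH2L promoter peak was listed for 11.3% of those with an H3K4me3 promoter peak and for 0.700% of those without one. Among the members the share with H3K4me3 was 7 of 47, 14.9%.

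Psmd12 was the exception. It had an ASH2L peak at chr11:107479289-107479804, 516 bp wide with a fold enrichment of 5.11 and the summit 36 bp upstream of the principal start, and no listed H3K4me3 promoter peak. This made 1 of 49 members, against 0.211% of all protein-coding genes. The ASH2L peak overlaps the sequence printed above for Psmd12. It had the fewest tags of the 8, and with no control library in the peak calling its standing against the HA signal of parental cells was not tested.

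The base composition of the promoters was described on RefSeq sequences of 300 bases, from 250 before to 50 after a start, which were matched for 41 of 49 members. Psma8, Psmb1, Psmb2, Psmb7, Psmc3, Psmd3, Psmd7 and Psmg2 were not matched. The median CpG ratio was 0.793 for the 37 constitutive promoters (range 0.0904 to 1.12), against 0.745 for all promoters of genes with an H3K4me3 promoter peak and 0.614 for all promoters. The lowest value was that of Psme2b. The 4 specialised promoters had ratios of 0.600 at Psmb9, 0.523 at Psmb8, 0.192 at Psmb10 and 0.165 at Psmb11. Psmb10 and Psmb11 are thus poor in CpG around the RefSeq start. Among these 4 genes, the RefSeq start lay furthest from the principal start used for the summits at Psmb8 (position 34198195 against 34197790 of chromosome 17) and at Psmb9 (34187330 against 34187764). The sequence of Psmb10 above holds 3 CpG, and that of Psmg1 22.

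The 6 motifs, known from housekeeping, stress-response and interferon-inducible promoters, were searched in the same 300 bases on both strands. The ETS site CCGGAAG was found in 15 of 37 constitutive promoters (40.5%, Wilson interval 26.3% to 56.5%), against 12.6% of all promoters and 16.7% of those with an H3K4me3 promoter peak. These 15 include Psmc1, Psmc2 and Psmc6 among the ATPases, 6 non-ATPase genes of 19S, and Psmc3ip, which encodes no subunit. Matches stand in the sequences of Psmd11 and Psmg1 above. The SP box GGGCGG was found in 21 of 37 (56.8%), against 49.1% of all promoters and 64.1% of those with H3K4me3. The CCAAT box was found in 11 (29.7%), against 38.3% and 37.8%, and is present more than once in Psmb3.

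The core of the antioxidant response element, TGACNNNGC, is the site through which NRF1, encoded by Nfe2l1, raises proteasome genes when the proteasome is inhibited. It was found in 6 of 37 constitutive promoters (16.2%), Psmb5, Psmb6, Psmc6, Psmd9, Psmd12 and Psme4, against 13.4% of all promoters and 14.5% of those with H3K4me3. The match in Psmb5 stands in capitals above. The interferon response core GAAANNGAA was found in 6 constitutive promoters (16.2%, Wilson interval 7.65% to 31.1%), against 8.23% of all promoters, which lies inside that interval, and 6.62% of those with H3K4me3. It was in none of the 4 specialised promoters. The TATA box TATAAA was found in 3 constitutive promoters (8.11%), Psmb4, Psmd1 and Psmd6, against 13.0% of all promoters and 7.13% of those with H3K4me3, and also in Psmb8. No match means only that these letters are not in this window.

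**Figure D4:**
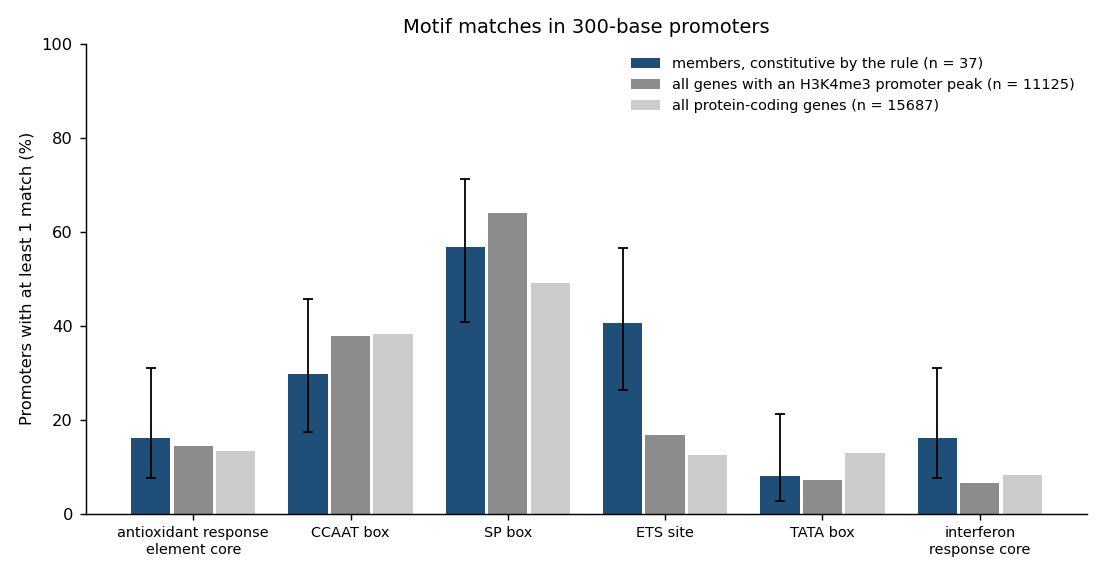
Share of 300-base promoters with at least 1 match on either strand (%), for 37 constitutive members (blue, with 95% Wilson interval), 11125 genes with an H3K4me3 promoter peak (dark grey) and 15687 protein-coding genes (light grey). The ETS site is found in 40.5% of the members and 16.7% of the genes with H3K4me3, and for the other motifs but the interferon response core the members' interval includes that share.

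Other genes that act with the proteasome were described in the same way. Of 18 cofactors and regulators listed, 17 were matched, and 15 of the 17 had an H3K4me3 promoter peak, against 69.8% of all protein-coding genes, with a median of 694 tags and 3546 bp. Among them were Adrm1, a ubiquitin receptor of 19S, with 694 tags, Pomp, the maturation factor of the core, with 617, and Vcp, the segregase that delivers substrates, with 768. Paaf1 was not matched. The exceptions were Nfe2l1 and Nfe2l2, which encode the transcription factors NRF1 and NRF2. Nfe2l2 had an ASH2L promoter peak of 47 tags, and no listed H3K4me3 promoter peak, as at Psmd12. This was the only ASH2L promoter peak among the 17 genes, against 8.07% of all protein-coding genes, but Vcp and Ubqln1 had an ASH2L peak 102 and 138 bp from a start, just outside the promoter window.

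Of 10 genes of antigen presentation and the interferon response, 9 had an H3K4me3 promoter peak, against 69.8% of all protein-coding genes. None had an ASH2L promoter peak, against 8.07%. The median of the 9 was 344 tags in 2445 bp. B2m, the light chain of class I molecules, had 344 tags, and Nlrc5, the activator of class I genes, 162. Tap2, beside Psmb8 in the major histocompatibility complex, had 312, in a peak that missed the promoter of its principal start. The peak counted for Tap1 is the one it shares with Psmb9. Tapbp, which encodes tapasin, had no listed promoter peak.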

How the data were processed

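The deposited lists hold peaks of HA-ASH2L and of H3K4me3, each called by the authors with MACS on merged duplicates (MACS 1.4.3 per the file headers, mm10, no control library, p-value cutoff 1e-05). The deposited tag counts are unnormalized tags of each peak. Fold enrichment, as deposited, is a ratio in which the authors' peak caller divides the summit by its local background. The deposited score is −log10 of the p-value times 10, and it is 50 at the cutoff. Tag sizes in the headers, 142 bp for H3K4me3 and 151 bp for ASH2L, exceed the fragment limit of the study's methods, and it is not settled which fragments were counted. The labels give 100000 cells for H3K4me3 and the methods 1000000.

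Starts came from GENCODE vM21 on GRCm38.p6. The principal start was that of the APPRIS principal transcript. Where a gene had several peaks, the one with the most tags was described. Overlaps, medians and motifs were computed with Python 3.11.15, numpy 2.4.6, pandas 2.3.3, scipy 1.17.1 and pysam 0.24.0, transcripts were aligned with blastn 2.17.0, and the overlap procedure was tested on simulated data. Shares have Wilson intervals and medians order-statistic intervals over genes, which are not replicates. Full values were given for the specialised subunits, for members with an ASH2L peak or without an H3K4me3 peak, for the 3 highest and 3 lowest in width, tags and fold enrichment, and for peaks shared with another gene. The members and lists were chosen with earlier results of these data known. For 9 results, 13 alternatives gave 111 values. The parental samples were not analysed here.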

Additional observations from a re-analysis of the deposited data

How the results depend on the processing

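Of 111 alternative values, 86 stayed close to the reported ones (counts within 1.5 times, medians and percents within their 95% intervals) and 25 moved. With only peaks at or above the median fold enrichment of their list, 29 members and 25 constitutive members had an H3K4me3 promoter peak, 2 members had an ASH2L promoter peak, and the median fold enrichment of the constitutive members was 7.60. With only peaks of a score of at least 100, 0 members had an ASH2L promoter peak. With the peak midpoint required in the promoter, 26 members, 23 constitutive members and 3 specialised members had an H3K4me3 promoter peak. The alternative itself drops peaks in each of these cases. The shares of all protein-coding genes fell too, to 36.7% for H3K4me3 and 3.93% for ASH2L at the median fold enrichment, to 0.961% for ASH2L at the higher score and to 38.1% for H3K4me3 with the midpoint. Windows of 2500 bp on both sides or of 300 bp upstream, coding starts only, RefSeq transcripts and leaving out Psmc3ip left the 8 ASH2L genes at 8. With the midpoint rule 7 kept an ASH2L promoter peak, without Psmd3, against 5.77% of all protein-coding genes. With peaks required to cover 50% of a promoter window 6 did, without Psmd12 and Psmg1, against 3.96%. With 1 start per gene, the most 5′ coding one, 43 members had an H3K4me3 promoter peak, against 65.3% of all protein-coding genes. Leaving out Psme2b and using principal starts only were chosen after seeing the data. No paired analysis was possible because the authors merged the duplicates, and leaving out a replicate could not be done for the same reason. Depth after filtering was similar in both lists, and 0.398% of the ASH2L tags lay in peaks, so a gene without an ASH2L peak is one below the threshold of the peak caller.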

Other observations

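The ETS site was found in 5 of the 7 matched promoters of members with an ASH2L promoter peak (Psmc2, Psmd6, Psmd11, Psmd12 and Psmg1; 71.4%, Wilson interval 35.9% to 91.8%) and in 10 of the 34 matched promoters of members without one (29.4%, 16.8% to 46.2%). Over all protein-coding genes with an ASH2L promoter peak the share was 16.9% of 1343 promoters. The split by ASH2L was looked at after the motif counts were known, and the difference was not tested. The median GC content was 66.3% in the 7 promoters and 57.0% in the 34, and it was 64.7% over all promoters with an ASH2L peak and 61.0% over all with an H3K4me3 peak.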
